A study of Mus musculus with 12 samples.

Results

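The 9 noncoding genes Gas5, Snhg1, Snhg3, Snhg5, Snhg6, Snhg8, Snhg12, Malat1 and Neat1 were chosen by name, as hosts of small nucleolar RNAs (snoRNAs) or as nuclear noncoding RNAs, out of the 41255 genes of the mRNA table. Of these 9, 8 had a row, Snhg3 was listed at 0 in every library, 7 were above 0 in at least 1 library, and 3 (Gas5, Snhg1 and Snhg6) passed the filter for testing, a mean of at least 10 normalized counts. Snhg8 was not found under its symbol or a RefSeq synonym and was not analysed here. None of the 9 had a row in the table of coding-sequence footprints, so all values given for these genes below are RNA levels.

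The samples were clones of Ba/F3, an interleukin-3 dependent mouse lymphoid line, that carry an shRNA against the endogenous Rpl10 and a retroviral copy of human *RPL10*. *RPL10* carried the R98S mutation in clones 11, 13 and 35 and was wild type (WT) in clones 28, 29 and 36, so both genotypes share the knockdown and the vector. Every culture grew from a single cell, so a genotype is represented by 3 clones and differences between clones and effects of the mutation are separated only by those 3. Each clone gave 1 mRNA library, made from polyadenylated RNA after 5 min with 100 µg/ml cycloheximide, and 1 ribosome footprint (RPF) library.

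The mRNA libraries held 20576796 to 22178094 reads in the R98S clones and 6617457 to 23136595 in the WT clones. The library of WT clone 28 stood apart: it was the one with 6617457 reads, and a single read in it stands for 2.69 normalized counts (0.784 to 0.860 in the others). The tested members are therefore given with and without it, and other results where its removal changes a call or moves a value by over 1.5 times. Of the 11 markers of the line, 6 were high enough to be tested and 2 were listed at 0 in every library: the interleukin-3 receptor chain Il3ra was at 560 to 1112 normalized counts, Cd79a at 730 to 1357 and Cd79b at 163 to 589, and Ptprc at 3802 to 11845, whereas the early B-cell genes Rag1 and Pax5 were the ones at 0 and Vpreb1, Igll1 and Ebf1 did not exceed 2.69. The line markers themselves differed between clones: their sum was 48090 in WT clone 28, 64322 to 93811 in the other WT clones and 100806 to 122567 in R98S clones, most of it from Csf2rb and its near-identical copy Csf2rb2. Csf2rb2 was higher in R98S clones (0.95 on the log2 scale, adjusted p = 0.0424, limma), Csf2rb differed by 0.93 (adjusted p = 0.121, limma) and Ptprc by -0.80 (adjusted p = 0.175, limma; -1.12 and adjusted p = 0.0252 without clone 28). Cd79b differed by 1.00 (adjusted p = 0.112, limma), and by 1.23 without clone 28, where it was called (adjusted p = 0.0492, limma).

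SnoRNAs are short nuclear RNAs that, with their protein partners, direct modification of ribosomal RNA: the box C/D class directs ribose methylation and the box H/ACA class pseudouridylation. Most vertebrate snoRNAs are cut out of the introns of a host gene, and in the Gas5 and Snhg genes the spliced exons carry no long conserved reading frame. Several of these spliced RNAs are nevertheless engaged by ribosomes and removed by nonsense-mediated decay, a translation-dependent pathway, and several start with a pyrimidine tract like that of ribosomal protein mRNAs. Malat1 and Neat1 host no snoRNA: Malat1 resides in nuclear speckles and ends in a triple helix in place of a poly(A) tail, and Neat1 is the scaffold of paraspeckles.

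In the mm10 annotation (GENCODE M21), Gas5 spans chr1:161034422-161038539 on the plus strand with 10 annotated small RNA genes inside it, and Snhg1 spans chr19:8723475-8726443 on the plus strand with 8. Snhg3 (chr4:132348014-132353686, minus strand) and Snhg5 (chr9:88521050-88522929, minus strand) hold 2 each. Snhg12 (chr4:132308623-132311024, plus strand) holds 5, and Snhg6 (chr1:9941959-9944118, minus strand) and Snhg8 (chr3:123507552-123508404, minus strand) hold 1 each. Malat1 lies at chr19:5795690-5802672 and Neat1 at chr19:5824708-5845478, both on the minus strand. Part of these exons is also annotated to other genes: 86.3% of the exon bases of Snhg3 on either strand, shared with Rcc1, Gm17300 and Snora73a (29.8% on the same strand, with Rcc1 and Snora73a), 17.8% for Gas5, 20.9% for Snhg1 and 19.6% for Snhg12, the last 3 shared with their own snoRNAs. How reads over shared bases were counted is not given in the sources used here, so the 0 of Snhg3 is a listing and not a measured absence.

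The start sites of 7 of the 9 genes were in the RefSeq promoter table (GRCm38.p6), which gave 8 windows of 30 bases on each side of a start, as Gas5 has a pair of starts. They are shown because the pyrimidine tract at the start is the feature the hosts share with ribosomal protein genes, and capitals mark a run of at least 5 bases that starts with C and holds only C or T, read on the transcribed strand. The windows are chr1:161035136-161035195 (plus) for Gas5 start 2, chr4:132308648-132308707 (plus) for Snhg12, chr3:123508307-123508366 (minus) for Snhg8, chr4:132353657-132353716 (minus) for Snhg3, and chr19:8723457-8723516 (plus) for Snhg1.
Gas5 start 2: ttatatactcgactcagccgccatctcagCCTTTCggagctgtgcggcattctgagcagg
Snhg12: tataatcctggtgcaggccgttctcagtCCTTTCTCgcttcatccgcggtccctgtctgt
Snhg8: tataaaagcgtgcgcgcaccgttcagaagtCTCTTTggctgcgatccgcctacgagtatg
Snhg3: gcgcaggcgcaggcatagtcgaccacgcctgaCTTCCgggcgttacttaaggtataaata
Snhg1: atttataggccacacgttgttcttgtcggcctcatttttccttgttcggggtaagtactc

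Such a run began within 5 bases of the annotated start in 4 of the 8 windows (50%), those of Gas5 start 2, Snhg12, Snhg8 and Snhg3, against 16.1% of the 32851 windows of the table. Anywhere in the window, 5 of 8 (62.5%) held one, against 59.1% of all windows. These letters were not found in the windows of Gas5 start 1, Snhg1 or Malat1.

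Compared per length, Snhg1 had the highest level of the 7 genes above 0 in these poly(A)-selected libraries, which need not rank RNAs without a poly(A) tail, such as Malat1, by their abundance in the cell. Snhg8 and Snhg3 have no place in this order. Its mean over the 6 libraries was 1041 normalized counts per kb of exon, above 92.8% of the tested genes. Snhg6 followed at 29.7 per kb and Gas5 at 16.7, at the 17.3 and 12.0 percentiles. Snhg5 was at 5.24 per kb, Malat1 at 1.15, Snhg12 at 0.458 and Neat1 at 0.143. Snhg1 exceeded Snhg6 by 35.1-fold and their values did not overlap in any pair of libraries. Each further pair of neighbours in this order overlapped, although Snhg6 exceeded Gas5, Gas5 exceeded Snhg5 and Snhg5 exceeded Malat1 in 6 of 6 libraries. Exon lengths were those of GENCODE M21, which may not be the annotation the reads were counted on.

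**Figure D1:**
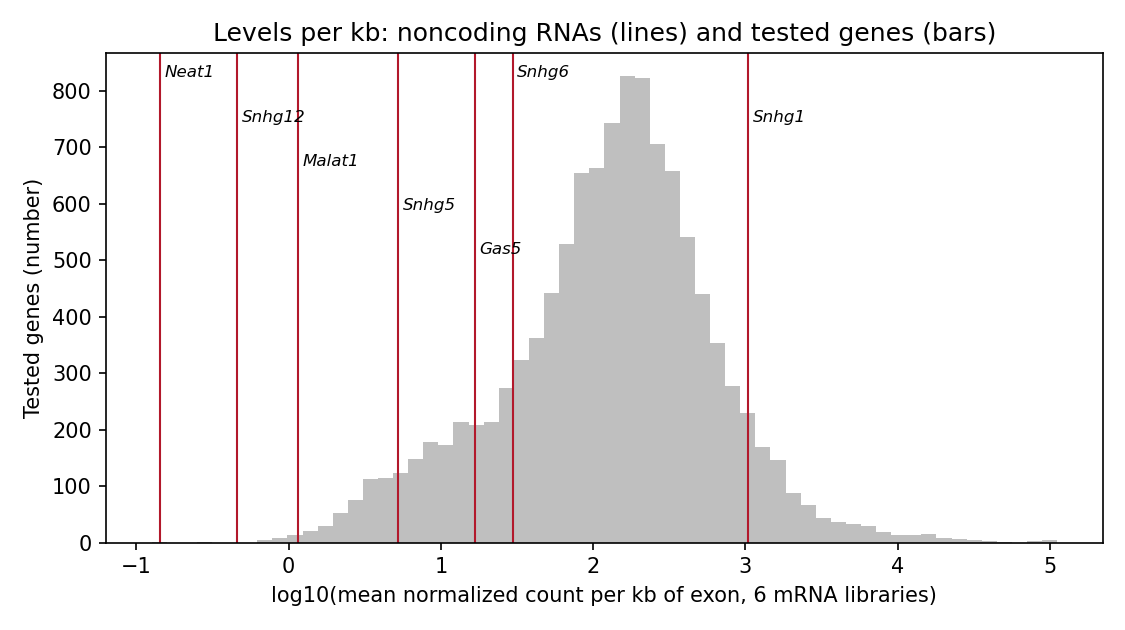
The bars count tested genes by the log10 of their mean normalized count per kb of exon over 6 mRNA libraries, and each line marks a noncoding RNA. Snhg1, at 1041 per kb, lies in the upper part of the distribution, Snhg6 and Gas5 lie in its lower part, and Neat1, at 0.143 per kb, lies at the lower end, below all but 1 of the tested genes.

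The question put to these RNAs was whether their levels differed between R98S and WT clones. None of the 3 tested genes was called (adjusted p under 0.1, limma), against 6.94% of the 11344 genes tested. Over all tested genes, 344 (3.03%) were higher and 443 (3.91%) lower in R98S clones. In each of the 3, the R98S and WT values overlapped, whereas they did not overlap in 23.5% of tested genes. The median difference of the 3 was 0.01 on the log2 scale, beside 0.01 over all tested genes. Without WT clone 28, the same 3 genes (Gas5, Snhg1 and Snhg6) were at 0.68, 0.30 and 0.54, beside a median of 0.00779 over all tested genes. Snhg5 then passed the filter too, and the median of the 4 was 0.60. It passed through its R98S values (mean 12.5, against 4.95 and 9.40 in WT clones 29 and 36). The filter thus favoured its difference of 0.66, which is no support. In these bulk cultures, less RNA per cell and fewer cells that carry it cannot be told apart.

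Gas5, the growth arrest-specific host of box C/D snoRNAs, gave a normalized count of 69.9 in R98S clone 11, 49.1 in clone 13 and 49.0 in clone 35, against 139.6, 36.3 and 32.1 in WT clones 28, 29 and 36. The WT group therefore held both the highest value and the lowest pair. The means were 56.0 ± 12.0 in R98S and 69.4 ± 60.9 in WT (SD, n = 3 each). The difference, R98S minus WT, was 0.01 on the log2(normalized count + 1) scale (SE 0.53, 95% interval -1.18 to 1.20, adjusted p = 0.995, limma). Without WT clone 28 it was 0.68 (SE 0.34, adjusted p = 0.291, limma), and all R98S values then lay above both WT values, as was the case, in either direction, for 39.2% of the genes tested without that clone. The value of clone 28 rests on 52 reads, whose exact Poisson interval of 104 to 183 normalized counts lies above the intervals of the other 5 libraries, the highest of which ends at 86.1. Intervals of this kind cover counting error only.

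Snhg1, a host of box C/D snoRNAs with a snoRNA in nearly every intron, gave a normalized count of 2798 in R98S clone 11, 2257 in clone 13 and 3331 in clone 35, against 5663, 2036 and 2453 in WT clones 28, 29 and 36. Clone 28 was again the highest and clone 29 the lowest, with the R98S clones between them. The difference was -0.14 (SE 0.34, 95% interval -0.91 to 0.63, adjusted p = 0.879, limma) and became 0.30 (SE 0.20, adjusted p = 0.419, limma) without clone 28. At 2109 reads in its shallowest library, Snhg1 had an exact Poisson interval of 5424 to 5911 normalized counts in clone 28, narrower than the spread among WT clones (SD 1985, n = 3).

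Snhg6, the host of Snord87, gave a normalized count of 39.7 in R98S clone 11, 31.1 in clone 13 and 30.1 in clone 35, against 53.7, 14.8 and 34.5 in WT clones 28, 29 and 36. The 3 R98S values lay inside the WT range. The difference was 0.13 (SE 0.49, 95% interval -0.95 to 1.22, adjusted p = 0.923, limma), and 0.54 (SE 0.45, adjusted p = 0.541, limma) without clone 28. Clone 28 gave 20 reads, and its interval of 32.8 to 82.9 normalized counts overlapped those of the R98S clones and of WT clone 36.

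**Figure D2:**
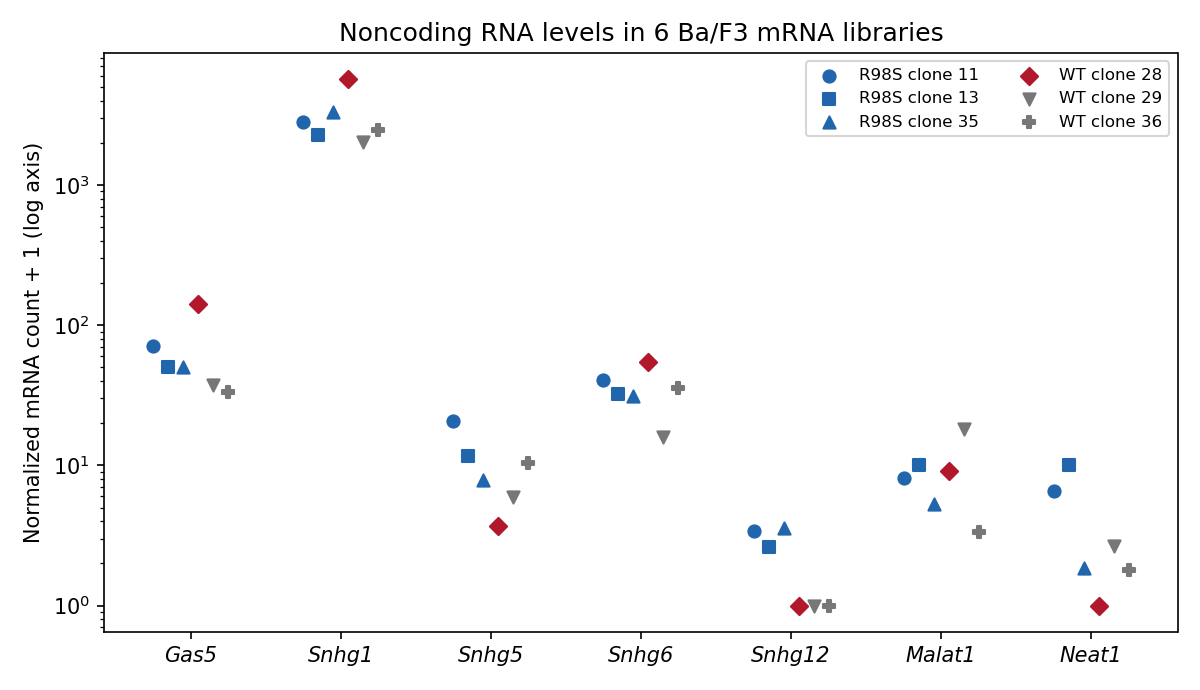
Each point is the normalized count plus 1 of 1 mRNA library on a log axis, with R98S clones in blue, WT clones 29 and 36 in grey and WT clone 28 in red. WT clone 28 is the highest library for Gas5, Snhg1 and Snhg6, and Snhg12 is listed at 0 in the 3 WT clones.

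The remaining hosts had few reads. Snhg5, which carries Snord50a and Snord50b, gave a normalized count of 19.8 in R98S clone 11, 10.6 in clone 13 and 6.88 in clone 35, against 2.69, 4.95 and 9.40 in WT clones 28, 29 and 36, for 46 reads in the R98S and 19 in the WT libraries. The groups overlapped, since WT clone 36 exceeded R98S clone 35, and the gene fell just under the filter with a mean of 9.07. In the fit without a filter on low values its difference was 1.02 (SE 0.64, adjusted p = 0.564, limma).

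Snhg12, a host of 4 different H/ACA and C/D snoRNAs, had 3, 2 and 3 reads in R98S clones 11, 13 and 35 and 0 reads in each WT clone, or 2.38, 1.64 and 2.58 normalized counts against 0. The groups did not overlap, as in 23.5% of tested genes. That share covers no gene this low, and the share among genes with so few reads was not determined. In all, 8 of 63972121 reads in the R98S libraries (exact Poisson interval 3.45 to 15.8 reads) stood against 0 of 51375045 in the WT libraries, which allows up to 3. The interval has a lower and an upper bound, the limit of 3 only an upper one, and the depths differ. The gap between 3.45 and 3 therefore shows no separation of the genotypes. Reads over exon bases shared with its snoRNAs may be listed elsewhere. The Snora16a row, which touches an exon of Snhg12, was at 2.69, 1.65 and 3.13 normalized counts in WT clones 28, 29 and 36. It was at 0.794, 0.819 and 4.30 in R98S clones 11, 13 and 35. That row was thus above 0 in both genotypes and does not tell why Snhg12 was at 0 in WT clones only. As the counting rule is not known, this 0 is a listing and not a measured absence. The part of shared bases in it was not tested. Within WT clone 28 alone, 0 reads allow up to 8.06 normalized counts, which is above every R98S value, so no difference from that library could be seen at its depth. Snhg12 was not tested in the main comparison. It was the one member called in the fit without a filter on low values (difference 1.67, SE 0.41, adjusted p = 0.064, limma), where 1.52% of 21260 genes were called higher in R98S clones, and the size of that difference depends on the pseudocount because the WT values are 0.

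Malat1, the speckle RNA, gave a normalized count of 7.14 in R98S clone 11, 9.01 in clone 13 and 4.30 in clone 35, against 8.06, 17.3 and 2.35 in WT clones 28, 29 and 36, the R98S values lying inside the WT range. It fell under the filter with a mean of 8.03, and without the filter its difference was -0.12 (SE 0.70, adjusted p = 0.955, limma). Its highest library, WT clone 29, had 21 reads and its lowest counts were 3 reads in each of WT clones 28 and 36.

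Neat1, the paraspeckle scaffold, gave a normalized count of 5.56 in R98S clone 11, 9.01 in clone 13 and 0.860 in clone 35, against 0, 1.65 and 0.784 in WT clones 28, 29 and 36. R98S clones 11 and 13, with 7 and 11 reads, were above the rest, while R98S clone 35 lay within the WT range with 1 read. Without the filter the difference was 1.56 (SE 0.68, adjusted p = 0.344, limma). The 0 of WT clone 28 allows up to 8.06 normalized counts, so that library cannot be placed below clone 11. Of 8 listed genes for paraspeckle proteins, the mRNA of 0 was called, against 6.94% of all tested genes, with a median difference of 0.08.

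**Figure D3:**
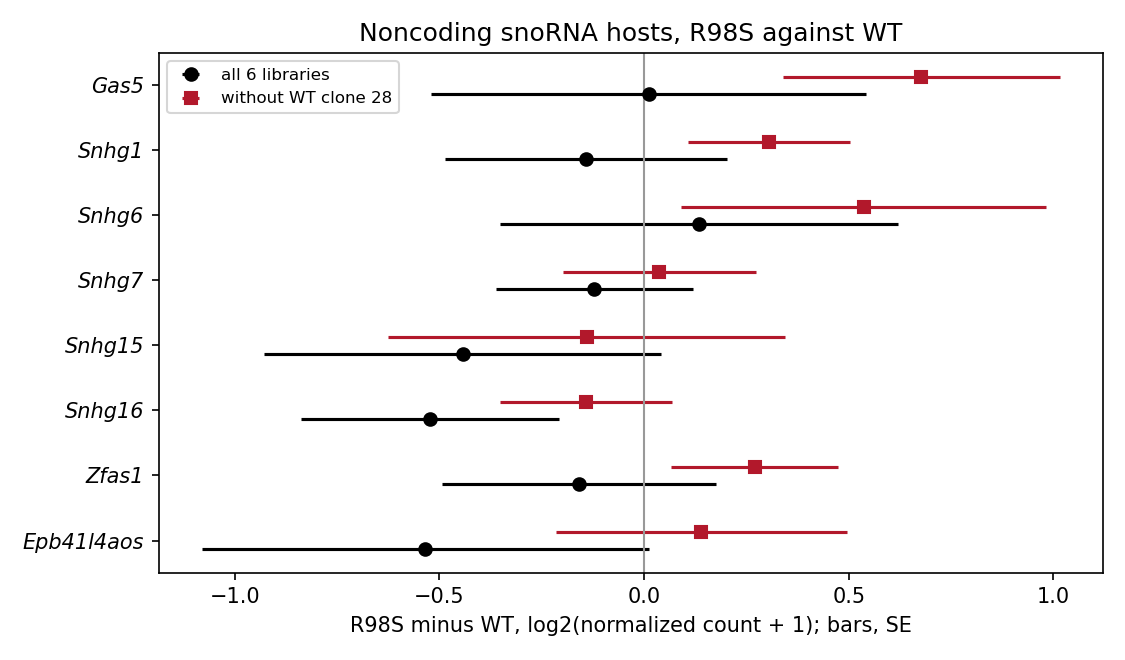
Points give the difference R98S minus WT on the log2(normalized count + 1) scale for the 8 noncoding snoRNA hosts tested, and bars the SE, with all 6 libraries in black and without WT clone 28 in red. Each point moves to the right when clone 28 is left out, and Snhg1 moves from -0.14 to 0.30.

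Most snoRNAs inside these genes were listed at 0 in the mRNA table. Of 29 small RNA genes annotated within the members, 26 had a row and 22 of these were listed at 0 in every library, among them all 7 rows in Gas5 and all 8 in Snhg1. Of these 22, 21 touch an annotated exon of their host, and the rule for reads over shared bases is not known. The libraries were also made from polyadenylated RNA, so a 0 need not tell the level of a snoRNA in the cell. Each 0 is a listing and not a measured absence, and the part of shared bases or of the RNA selection was not tested. Over the whole table, 81.4% of 1439 snoRNA rows were listed at 0. The share was 68.4% of the 152 rows that touch an exon of another gene on the same strand. It was 83% of the 1287 rows that do not. The exceptions within the members were Snord87 in Snhg6, Snora24 in Snhg8, and Snora16a in Snhg12, whose single row covers a pair of annotated entries. Snora24 and Snora16a touch an exon of their host too.

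Snord87 is printed because it is the member snoRNA with the highest values. It lies at chr1:9942463-9942549 on the minus strand in an intron of Snhg6, and capitals mark the first TGATGA (the C box letters) and the last CTGA (the D box letters) on the transcribed strand. An earlier CTGA in the sequence is left in lower case.
Snord87: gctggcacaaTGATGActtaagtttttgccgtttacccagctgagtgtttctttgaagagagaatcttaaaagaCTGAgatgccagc

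Snord87 gave a normalized count of 10.3 in R98S clone 11, 11.5 in clone 13 and 6.88 in clone 35, against 40.3, 6.60 and 9.40 in WT clones 28, 29 and 36. Clone 28 thus held the highest value of both the host Snhg6 and the snoRNA, and the other 5 libraries did not separate by genotype. Snora24 was at 0.784 to 5.77 and Snora16a at 0.794 to 4.30, with overlapping groups.

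WT clone 28 was the highest library for each of the 3 tested members, and also for each of the 5 other noncoding snoRNA hosts that could be tested, against 23.9% of all tested genes. Gas5 was 2.00-fold and Snhg1 1.70-fold above the highest of the other 5 libraries, and Snhg6 1.35-fold. On the log2 scale, clone 28 exceeded the mean of the other 5 by 1.59 for Gas5, 1.16 for Snhg1 and 0.88 for Snhg6, larger than for 97.97%, 95.9% and 93.1% of tested genes. Snhg5, in contrast, had its lowest value there, from 1 read.

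This library also differed from the rest by gene length. Its median deviation from the other 5 was 0.39 for the 440 tested genes with under 1 kb of exon, 0.25 from 1 to 2 kb, 0.08 from 2 to 4 kb and -0.14 over 4 kb. It was the highest library for 47.5% of the shortest and 15.8% of the longest class. The 3 members have 1146 (Snhg6), 2969 (Snhg1) and 3760 (Gas5) exon bases, and each deviated more than its class median. These lengths join the exons of all annotated transcripts, so a class can change with the annotation. Among the 76 cytosolic ribosomal protein genes, a list added after these values were seen, clone 28 was the highest library for 63.2%, with a median deviation of 0.38. Of the 76, 0 were called with all libraries, beside 6.94% of all tested genes. Without clone 28, 5 of the 76 were called higher in R98S clones, beside 491 of 11338 genes. Hba-a1, a haemoglobin gene and a marker of red cells, was at 169 normalized counts in clone 28, 28.9 and 36.8 in the other WT clones and 1.64 to 4.76 in R98S clones, and Hbb-bs was at 48.3 in clone 28 and at most 0.794 elsewhere. Hba-a1 was called lower in R98S clones (-3.93, SE 0.70, adjusted p = 0.0147, limma), also without clone 28 (-3.15, adjusted p = 0.0192, limma). The 9 markers of other cell types, of which only Epcam was at 0 in every library, summed to 249.7 in clone 28, 32.2 to 50.2 in the other WT clones and 55.0 to 93.7 in R98S clones. Cd3d of this list ran the other way, at 73.8, 63.1 and 43.8 in R98S clones 11, 13 and 35. It was at 29.5, 1.65 and 11.0 in WT clones 28, 29 and 36. Its difference was 2.60 (adjusted p = 0.105, limma), and 3.41 without clone 28, where it was called (adjusted p = 0.0213, limma). Col1a1 and Col1a2, too low to be tested, were also higher in R98S clones. Col1a1 was at 2.58 to 10.3 there against 0 to 0.825 in WT clones, and Col1a2 at 0.860 to 2.38 against 0. The part of depth, length or other cells in the host values of clone 28 was not tested.

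**Figure D4:**
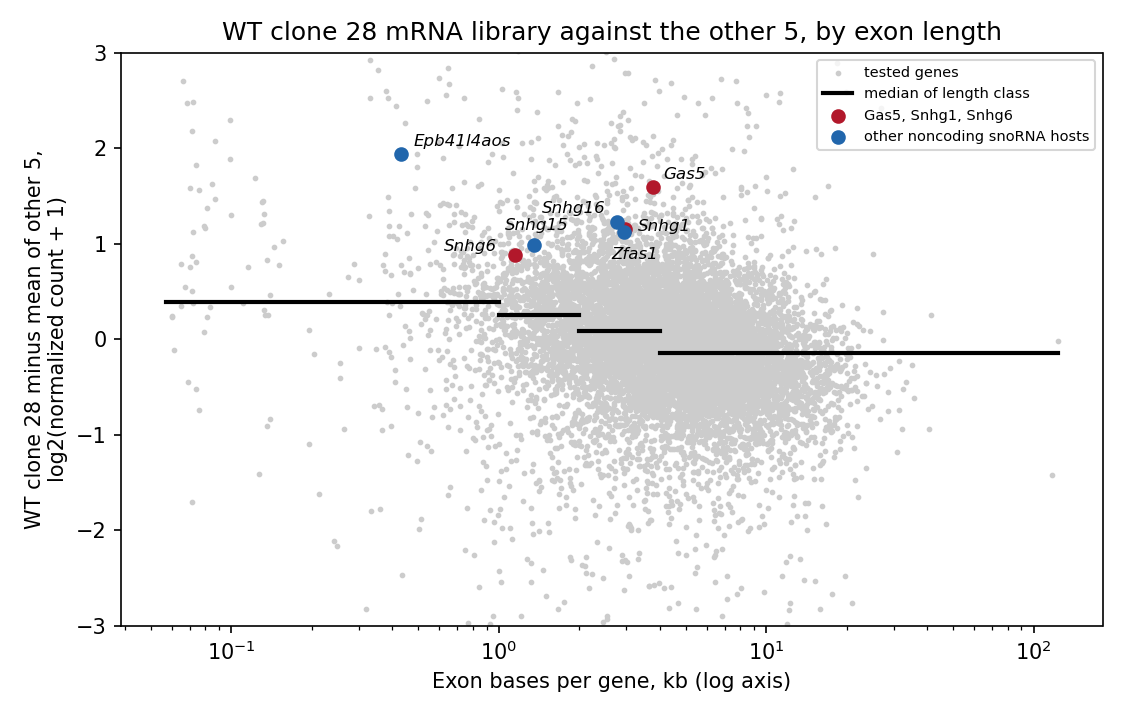
The y axis gives WT clone 28 minus the mean of the other 5 mRNA libraries on the log2(normalized count + 1) scale and the x axis exon bases in kb (log axis) for 11237 tested genes, of which 153 lie outside the y axis. Black lines are medians of the length classes and fall from 0.39 to -0.14, and the 7 of 8 tested noncoding snoRNA hosts with a known length lie above them.

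Chromosome medians were set beside the host values. On chromosome 1, which carries Gas5 and Snhg6, the median shift of 613 genes against all genes was 0.19 in both R98S clones 11 and 13, -0.09 in R98S clone 35 and -0.15 in WT clone 28. Chromosome 4, with Snhg3 and Snhg12, had a median difference of 0.19 between R98S and WT over 711 genes. For chromosome 19, with Snhg1, Malat1 and Neat1, it was -0.00147 over 414 genes.

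Other noncoding snoRNA hosts were not called either. Of 14 listed, 12 had a row and 5 (Snhg7, Snhg15, Snhg16, Zfas1 and Epb41l4aos) were tested. Of these, 0 were called, beside 6.94% of all tested genes. Their median difference was -0.44 with all libraries and 0.04 without clone 28. The difference farthest from 0 was that of Epb41l4aos (-0.53, SE 0.55, adjusted p = 0.666, limma, and 0.14 without clone 28), whose value of 115 in clone 28 compared with 26.4 to 34.1 elsewhere. Snhg16 was the only one with footprints, at 18.6, 18.4 and 40.3 normalized RPF counts in R98S clones 11, 13 and 35 and 48.7, 27.1 and 54.0 in WT clones 28, 29 and 36 (difference -0.76, adjusted p = 0.332, limma). Protein-coding genes that hold a snoRNA in an intron were counted too: of 160 tested, 2 were higher (Nans and Uchl5) and 4 lower (Lpp, Rock2, St3gal2 and Stxbp5) in R98S clones, with a median of -0.04, beside 3.03% higher and 3.91% lower over all tested genes. Without clone 28 the counts were 5 higher and 6 lower of 160, beside 491 higher and 622 lower of 11338 genes. Each of the 6 named genes lost its call when at least 1 of the clones was left out, Nans also without WT clone 28 (adjusted p = 0.110, limma).

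Among 18 further noncoding RNAs of nucleus or cytoplasm, 3 were tested and 1 fell, beside 3.91% of all tested genes that were lower. This was Rn7sk, the small nuclear RNA that restrains the elongation kinase P-TEFb. It gave a normalized count of 6.35 in R98S clone 11, 1.64 in clone 13 and 7.74 in clone 35, against 91.3, 228 and 25.9 in WT clones 28, 29 and 36. Its groups did not overlap, and the difference was -3.90 (SE 0.78, adjusted p = 0.0250, limma), close to the -3.82 found without clone 28. Rn7sk has many near-identical copies in the genome, so its count is uncertain. The WT values alone ran from 25.9 to 228. As the libraries were made from polyadenylated RNA, the difference need not be one in the level of Rn7sk in the cell.

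The proteins that package snoRNAs did not pass the test. Of the 8 core proteins of box C/D and H/ACA particles, 0 were called in mRNA, where the median difference was 0.22 (0.38 without clone 28), or in RPF, where 7.76% of 9580 genes were called. The pseudouridine synthase Dkc1 had the largest (0.35, adjusted p = 0.370, limma). Of 10 assembly factors, 0 were called in mRNA (median 0.27), beside 6.94% of all tested genes. Pih1d1 had the largest difference there (0.84, adjusted p = 0.613, limma), with 4321 normalized counts in R98S clone 11 against 392 to 851 elsewhere. Without that clone it was -0.23 (adjusted p = 0.861, limma), and with library weights 2.02 and called (adjusted p = 0.0883, limma).

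Nonsense-mediated decay, the pathway known to remove several spliced host RNAs, had 2 of its 17 tested factors called in mRNA, where 6.94% of all tested genes were called. The median difference of the 17 was 0.14, and 0.00429 without clone 28. Upf3b, which links exon junctions to the decay machinery, rose: it gave a normalized count of 1854 in R98S clone 11, 1857 in clone 13 and 1731 in clone 35, against 1074, 1073 and 1154 in WT clones 28, 29 and 36 (difference 0.72, SE 0.15, adjusted p = 0.0343, limma). Its RPF difference of 0.50 missed the threshold (adjusted p = 0.175, limma). Magohb, a subunit of the exon junction complex, fell: it gave 173, 132 and 187 in clones 11, 13 and 35, and 1037, 440 and 379 in WT clones 28, 29 and 36 (difference -1.78, SE 0.36, adjusted p = 0.0274, limma; -1.33 without clone 28). Its RPF also fell (-2.02, adjusted p = 0.00766, limma). Magohb and its near-identical copy Magoh can share reads, so the split between them is uncertain, and Magoh itself differed by 0.10 (adjusted p = 0.865, limma). Neither call survived the loss of every clone: Upf3b missed the threshold without R98S clone 11 (adjusted p = 0.168, limma), R98S clone 13 (0.141) or WT clone 36 (0.101), and Magohb without R98S clone 13 (0.124).

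Of 6 tested coding mRNAs known as decay substrates, 0 were called (median 0.14), and the largest difference was that of the stress factor Atf4 (-0.63, adjusted p = 0.444, limma). Atf4 ranged from 6216 to 17712 normalized counts within the R98S clones alone. Without R98S clone 35 it was called lower (-1.12, adjusted p = 0.0672, limma), as it was with library weights (-0.85, adjusted p = 0.0606, limma). Of 7 speckle and Malat1 processing proteins, 0 were called (median 0.16, and 0.07 without clone 28), with Mettl16 the largest (0.39, adjusted p = 0.435, limma). Of 6 tested neighbours of the members, 0 were called, and Zbtb37, beside Gas5, had the largest difference (0.38, adjusted p = 0.658, limma), which was 0.00409 without WT clone 28. Of all tested genes, 6.94% were called, so 0 calls in lists this short shows little.

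The genes whose pattern over the 6 mRNA libraries was most like that of the hosts were sought among 9338 genes with a mean of at least 100 normalized counts. For the mean log2 level of the 5 hosts above 0, the nearest were Wdr46, Ipo4 and AK010878, with root mean square differences of 0.07, 0.08 and 0.08 on the log2 scale beside a standard deviation of 0.40 for the pattern itself. That mean was 5.82, 5.35 and 5.42 in R98S clones 11, 13 and 35 and 5.45, 4.55 and 4.97 in WT clones 28, 29 and 36, and it includes the sparse Snhg5 and Snhg12. The nearest to Malat1 were Gls2, Emx2 and 1110058L19Rik (0.34, 0.35 and 0.35, beside 0.76). The nearest to Neat1 were Zbtb26, Ephb2 and Zfp759 (0.38, 0.38 and 0.41, beside 1.14). Both nuclear patterns rest on libraries with 0 to 21 reads.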

How the data were processed

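The mRNA of 6 Ba/F3 clones and the footprints of the same clones were analysed (3 R98S and 3 WT, grouped by the labels). The authors deposited signal values, gene counts divided by DESeq2 size factors, 1 table per assay. Per the submitters' processing notes, reads were aligned with TopHat2 2.0.11 to mm10. Exon reads were counted for mRNA and coding-sequence reads for RPF, with technical replicates merged. The counting program, annotation and strand setting are not given in the sources used here. Whole reads were recovered for 100% of the values above 0 (relative tolerance 1e-06).

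R98S was tested against WT with limma 3.58.1 (R 4.3.3, trend) on log2(normalized count + 1) for genes with a mean of at least 10, with Benjamini-Hochberg adjustment over 11344 mRNA or 9580 RPF genes and a threshold of 0.1. A fold change on that scale understates changes of low genes. On recovered reads, edgeR 4.0.16 called 365 mRNA genes higher and 440 lower, and DESeq2 1.42.0 called 578 and 705. The tests were tried on simulated data in which 200 genes were changed, of which limma recovered 178 for mRNA, with 14 false calls. Each changed gene had the same size of change, larger than any difference of a tested member, and all genes shared the same dispersion. The recovery therefore does not tell how often differences as small as those of the members would be found. Clones are separate cultures.

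Members are named in full, and listed genes where called or, if none was, by the largest difference. The value of 1 listed gene is not reported here. Patterns were compared by root mean square difference. Members and lists were chosen with earlier results of these data known. Sequences came from RefSeq (GRCm38.p6).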

Additional observations from a re-analysis of the deposited data

How the results depend on the processing

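No member was called under any alternative except the fit without a filter on low values, where 1 (Snhg12) was. Directions of uncalled members were not stable. Gas5, at 0.01 with all libraries, was -0.00631 with a pseudocount of 5, -0.23 with edgeR and -0.27 with DESeq2, and ran from -0.37 to 0.68 when 1 clone was left out. Snhg1 was 0.12 with library weights and ran from -0.43 to 0.30, and Snhg6 from -0.36 to 0.54. With library weights, Snhg7, Zfas1 and Epb41l4aos turned to 0.0894, 0.34 and 0.0158. With 1 clone left out they ran from -0.22 to 0.0714, -0.46 to 0.27 and -0.90 to 0.14, and Pih1d1 turned to -0.23 without R98S clone 11. Over the differences of single named genes, 315 kept their direction and side of the threshold, 34 lost and 3 gained a call, and 18 changed sign. The cause was not tested.

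Counts of called genes moved more. For mRNA (344 higher, 443 lower), library weights gave 1454 and 1505 and DESeq2 578 and 705, and leaving out 1 clone gave 130 to 491 higher and 182 to 622 lower. For RPF (300 higher, 443 lower), DESeq2 gave 460 higher, and leaving out 1 clone gave 65 to 506 higher and 164 to 642 lower. The other settings stayed within 1.5 times. No paired analysis was possible because clones of the R98S and WT groups share no numbers. Depth limits Snhg5, Snhg12, Malat1 and Neat1, at 0 to 25 reads per library.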
